A study of Bos grunniens x Bos taurus and Bos grunniens with 6 samples.

Results

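The 9 genes NR2F2, TCF21, PDGFRA, PDGFRB, PDGFA, PDGFC, PDGFD, DLK1 and NES, which are known from stromal cells and from progenitors of Leydig cells, were followed in the testis transcriptome of cattle-yak and yak. They were found by their symbols among the 18918 genes of the expression table, where each symbol stood on a single gene, so that 9 genes of the table were described. The study asked how testis tissue of the sterile hybrid differs from that of yak after sexual maturity. Testis RNA came from 3 male cattle-yak (libraries TES5, TES6 and TES7), which were F1 offspring of a Jersey cattle sire and a Gannan yak dam, and from 3 male Gannan yak (Yak8, Yak9 and Yak10). All animals were 4 years old, and each library came from 1 animal. Each group came from its own county. The labels name castration as the source of all testes, whereas the methods name castration for the hybrids and euthanasia for the yak, and neither place nor way of sampling can be told apart from the hybrid state. Whole tissue was sequenced, with reads of both groups placed on the yak genome, so transcripts of the cattle alleles were counted on yak gene models. The tissue matched its label, since Sertoli, Leydig and germ cell genes were detected in every library, although the summed level of 6 spermatid genes was 15.6 to 78.3 FPKM in cattle-yak and 8295 to 10127 FPKM in yak. FPKM counts fragments relative to the length of the gene model and the depth of the library, and 11175100 to 13136129 fragments on genes stood behind each library.

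Between the seminiferous tubules lie Leydig cells, blood vessels and a stroma of spindle-shaped cells, some of which keep the ability to become Leydig cells. Platelet-derived growth factors (PDGF) are secreted as dimers and act through the receptor tyrosine kinases PDGFRA and PDGFRB. In the developing testis Sertoli cells are a source of PDGFA, and the interstitial cells that carry PDGFRA give rise to Leydig cells. The transcription factors NR2F2 (COUP-TFII) and TCF21 mark interstitial mesenchyme, NES is an intermediate filament of progenitor and perivascular cells, and DLK1 is a membrane protein of immature Leydig and other immature cells. In the deposited annotation 5 of the 9 genes carry the term platelet-derived growth factor receptor signaling pathway, and the same number carry positive regulation of ERK1 and ERK2 cascade.

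In cattle-yak testis 8 of the 9 genes were significantly upregulated. PDGFRA, TCF21 and PDGFD changed most, to 5.99, 6.16 and 5.80 times the mean FPKM of yak, while DLK1 changed least and was not called. None was called lower. A gene was called when limma gave a Benjamini-Hochberg adjusted p under 0.05 over all 15042 genes tested and the log2 (foldchange) on log2 (FPKM + 1) lay beyond 1. By this rule 33.4% of all genes tested were higher in cattle-yak and 20.8% lower. The 3 cattle-yak values lay above the 3 yak values for all 9 genes, as they did for 53.9% of the genes tested, while 30.2% lay the opposite way without overlap. The median log2 (foldchange) was 1.74 for the 9 genes and 0.51 for all genes tested. With median-of-ratios scaling between libraries the median was 1.19 for the 9 genes and 0.01 for all genes tested. With this scaling 8 of the 9 genes were called higher, where 17.7% of the genes tested were called higher and 27.7% lower. Of these 8 genes, NES (1.02) and PDGFRB (1.04) passed the threshold of 1 only narrowly. Of all calls 38.9% were then higher, against 61.6% before. In whole tissue, a higher FPKM from more cells of a type and one from more RNA per cell cannot be told apart, and the part of the lower spermatid transcripts in these changes was not tested.

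**Figure D1:**
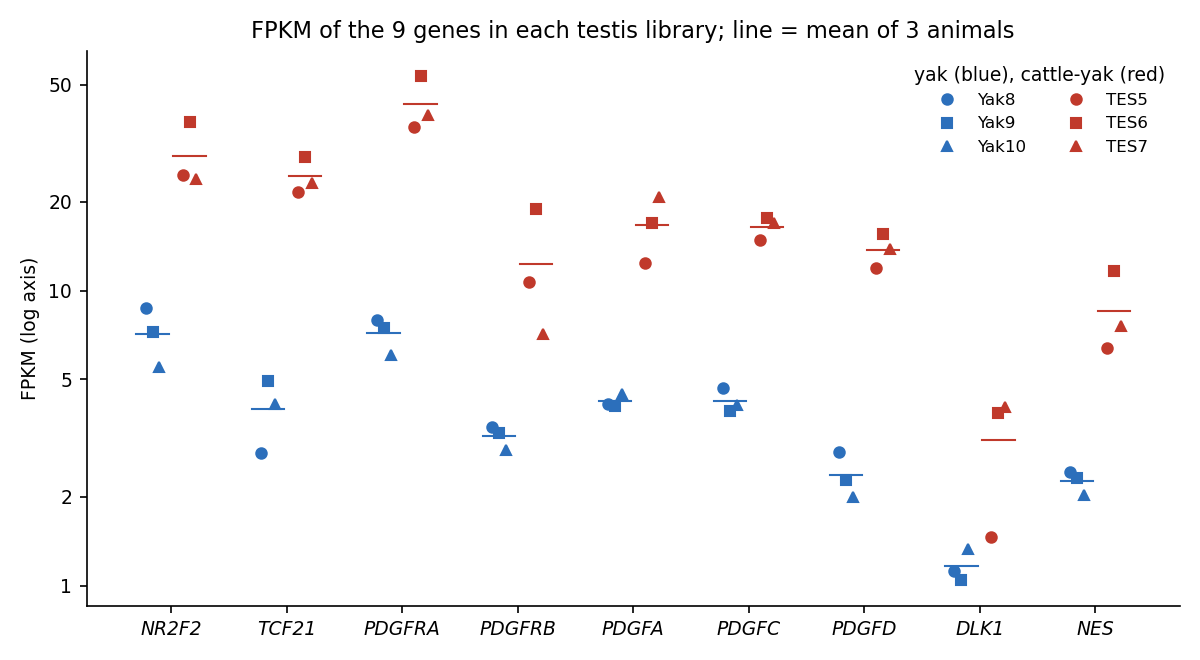
FPKM of each gene (log axis) in the 3 yak (blue) and 3 cattle-yak (red) libraries, with marker shapes for the animals and a line at the group mean. All red points lie above the blue points of the same gene, with the smallest distance for DLK1, where TES5 had 1.46 FPKM against 1.33 in Yak10.

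Among the transcription factors, NR2F2 (ENSBGRG00000006400), an orphan nuclear receptor, had 24.8, 37.3 and 23.9 FPKM in TES5, TES6 and TES7, against 8.71, 7.22 and 5.49 FPKM in Yak8, Yak9 and Yak10. TES6 was the highest animal, and the lowest cattle-yak still had 2.75 times the highest yak. The log2 (foldchange) of NR2F2 was 1.86 (SE 0.21, with SE the standard error, limma adjusted p = 5.9e-05). TCF21 (ENSBGRG00000019152), a basic helix-loop-helix factor of mesenchyme, had 21.6, 28.5 and 23.1 FPKM in the cattle-yak libraries and 2.82, 4.95 and 4.13 FPKM in the yak libraries. The yak values of TCF21 rested on 20, 35 and 29 fragments on a gene model of 540 bases. Its log2 (foldchange) was 2.37 (SE 0.19, limma adjusted p = 8.1e-06), larger than in 96.9% of the genes tested.

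PDGFRA (ENSBGRG00000024258), the receptor for PDGFA and PDGFC, was the most abundant of the 9 genes in cattle-yak. It had 36.0, 53.5 and 39.5 FPKM in TES5, TES6 and TES7, and 7.98, 7.49 and 6.07 FPKM in Yak8, Yak9 and Yak10. The lowest cattle-yak had 4.51 times the level of the highest yak, and the log2 (foldchange) of 2.41 (SE 0.17, limma adjusted p = 4.1e-06) was the largest of the 9 genes. TCF21 followed at 2.37. It exceeded PDGFRA with a pseudocount of 0.1 (2.62 against 2.55) and with voom on the recovered fragments (2.63 against 2.57). PDGFRB (ENSBGRG00000020782), the receptor of pericytes and smooth muscle cells, had 10.7, 19.0 and 7.12 FPKM in the cattle-yak libraries, against 3.46, 3.28 and 2.88 FPKM in the yak libraries. The cattle-yak animals differed from each other in PDGFRB by a factor of 2.66, whereas the yak animals differed by 1.20. The log2 (foldchange) of PDGFRB was 1.56 with a 95% interval from 0.88 to 2.24 (limma adjusted p = 0.00124).

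Within a library, PDGFRA stood at 3.35, 2.82 and 5.55 times the FPKM of PDGFRB in TES5, TES6 and TES7, and at 2.30, 2.28 and 2.11 times in Yak8, Yak9 and Yak10. The balance lay further toward PDGFRA in every cattle-yak, most of all in TES7. On the log2 (FPKM + 1) scale the ratio averaged 1.81 ± 0.45 for cattle-yak, compared with 0.95 ± 0.077 for yak (SD, n = 3 each). The exact permutation test (two-sided) gave p = 0.1, the smallest p that 3 animals against 3 allow, and 0.14 after Benjamini-Hochberg adjustment over 7 measures of this kind. The difference between the group means was 0.85 with all animals, 0.60 without TES7 and 1.03 without TES6. The plain FPKM ratios of each library do not depend on how the libraries are scaled against each other, while the values on log2 (FPKM + 1) do to some degree, through the pseudocount.

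The ligands rose as well. PDGFA (ENSBGRG00000025342) had 12.4, 16.9 and 20.8 FPKM in TES5, TES6 and TES7, against 4.13, 4.07 and 4.48 FPKM in Yak8, Yak9 and Yak10. The yak animals were nearly alike, while TES7 had 1.67 times the PDGFA of TES5, and the log2 (foldchange) was 1.73 (SE 0.18, limma adjusted p = 4.0e-05). PDGFC (ENSBGRG00000004629), a ligand that proteases activate by removing its CUB domain, had 14.8, 17.6 and 16.9 FPKM in cattle-yak and 4.68, 3.91 and 4.11 FPKM in yak. It was the steadiest of the 9 genes among the cattle-yak animals, with a coefficient of variation of 8.83%. The log2 (foldchange) of PDGFC was 1.74 (SE 0.13, limma adjusted p = 5.9e-06). PDGFD (ENSBGRG00000020375), which has the same build and binds PDGFRB, had 11.9, 15.6 and 13.9 FPKM in the cattle-yak libraries, against 2.85, 2.28 and 1.99 FPKM in yak. In yak these values rested on 65, 52 and 45 fragments. The log2 (foldchange) of PDGFD was 2.13 (SE 0.16, limma adjusted p = 5.6e-06), the largest of the ligands.

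The remaining ligand, PDGFB, which is made by endothelial cells and recruits pericytes, had 5.73, 5.38 and 4.04 FPKM in cattle-yak and 4.42, 4.75 and 3.12 FPKM in yak. These values overlapped, and the log2 (foldchange) was 0.25 with a 95% interval from −0.18 to 0.68 (limma adjusted p = 0.241). The make-up of the 4 ligands within a library also differed. PDGFB made up 12.8%, 9.70% and 7.26% of the summed ligand FPKM in TES5, TES6 and TES7, and 27.5%, 31.6% and 22.8% in Yak8, Yak9 and Yak10. PDGFD held 26.5% ± 1.53 of the ligand FPKM in the hybrids, compared with 15.8% ± 1.67 in yak (SD, n = 3 each). For PDGFC the shares were 31.7% ± 1.29 and 28.4% ± 2.08 (SD, n = 3 each). In these 3 ligands the groups did not overlap, with p = 0.1 for each in the exact permutation test (two-sided, adjusted p = 0.14). The shares are parts of 1 sum, so a change in 1 share shifts the others, and these are not separate results. In mean FPKM, PDGFB was not lower in cattle-yak (5.05) than in yak (4.10). The mean FPKM of PDGFC in cattle-yak was 3.89 times that of yak, less than for PDGFA (3.96) and PDGFD (5.80). Its mean share was therefore larger only with PDGFB in the sum. The share of PDGFA was 31.9% ± 4.97 in the hybrids, compared with 28.5% ± 3.69 in yak (SD, n = 3 each), and the groups overlapped (exact permutation test, two-sided, p = 0.5, adjusted p = 0.5). The difference of 3.36 percentage points was 0.615 without TES7, 1.97 without Yak8, 5.44 without TES5 and 5.46 without Yak10. Without PDGFB in the sum this difference turned to −3.86 percentage points, again with overlap.

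**Figure D2:**
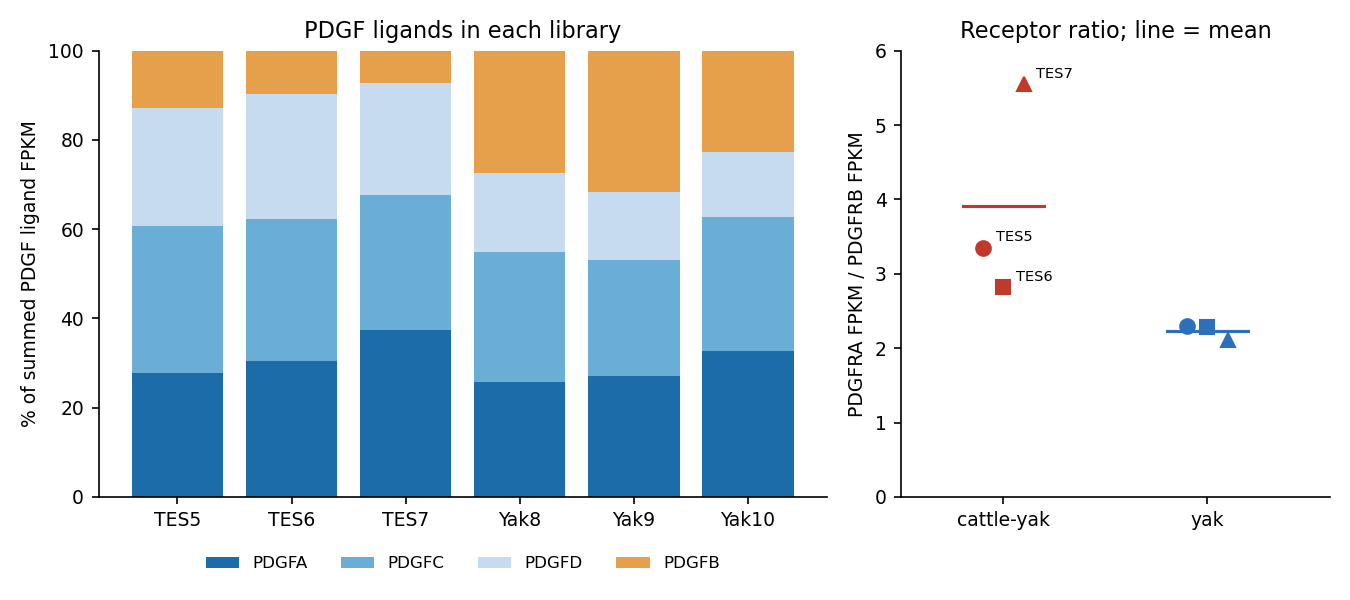
Left, percent of the summed FPKM of the 4 PDGF ligands held by each ligand in each library; right, FPKM of PDGFRA divided by that of PDGFRB in each library, with a line at the mean of 3 animals. The PDGFB share is smaller in every cattle-yak library (7.26% to 12.8%) than in every yak library (22.8% to 31.6%), and TES7 has the highest receptor ratio, 5.55.

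Summed over PDGFA, PDGFC and PDGFD, the ligands reached 39.2, 50.1 and 51.6 FPKM in TES5, TES6 and TES7 and 11.7, 10.3 and 10.6 FPKM in Yak8, Yak9 and Yak10. The sum of both receptors was 46.8, 72.4 and 46.6 FPKM in cattle-yak and 11.4, 10.8 and 8.96 FPKM in yak. Ligand to receptor ratios were 0.84, 0.69 and 1.11 in cattle-yak and 1.02, 0.95 and 1.18 in yak. The log2 ratio differed by −0.28 between the groups, with overlap (exact permutation test, two-sided, p = 0.3, adjusted p = 0.35). It was −0.12 without TES6, −0.46 without TES7 and −0.19 without Yak10. When PDGFB was added to the ligands, the difference was −0.59 without overlap (exact permutation test, p = 0.1).

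DLK1 (ENSBGRG00000022035) had 1.46, 3.86 and 4.02 FPKM in TES5, TES6 and TES7, and 1.12, 1.04 and 1.33 FPKM in Yak8, Yak9 and Yak10. TES5 lay near the yak animals, and its 48 fragments gave an exact 95% Poisson interval of 1.07 to 1.93 FPKM, which covers counting error only and includes the value of Yak10. The log2 (foldchange) of DLK1 was 0.86 with a 95% interval from 0.22 to 1.50 (limma adjusted p = 0.0191). The fold stayed below the limit of 1. It passed that threshold without TES5 (1.19), with a pseudocount of 0.1 (1.23), narrowly with TPM scaling and with voom on the recovered fragments (1.27). It weakened to 0.46 with median-of-ratios scaling (limma adjusted p = 0.134), and the adjusted p rose above 0.05 without TES6 (0.0703), TES7 (0.0622), Yak8 (0.0508) or Yak9 (0.0577). The value of 0.86 was larger than in 61.7% of the genes tested.

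NES (ENSBGRG00000024887), which encodes nestin, had 6.37, 11.7 and 7.58 FPKM in the cattle-yak libraries, against 2.43, 2.32 and 2.04 FPKM in the yak libraries. TES6 was again the highest animal, and the log2 (foldchange) was 1.51 (SE 0.21, limma adjusted p = 0.000201). Across the 9 genes TES6 was the highest cattle-yak for 7, the exceptions being PDGFA and DLK1, where TES7 was highest. Of all genes tested, 37.8% were highest in TES6 among the cattle-yak animals. PDGFRB and NR2F2 had TES6 highest and TES7 lowest, an order that 17.5% of the genes tested shared. It was found in 5 of 7 genes of the pericyte list, 4 of 7 of the macrophage list, 4 of 8 of the endothelium list, 3 of 7 of the adult Leydig list, 3 of 8 of the fibroblast list and 6 of 17 of the PDGF pathway list, and in 0 to 4 genes of each of the other lists. The coefficient of variation among cattle-yak was 49.5% for PDGFRB, 46.2% for DLK1 and 32.6% for NES, against a median of 14.2% over the genes tested, and in yak the corresponding values were 9.26%, 12.7% and 8.94%.

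FPKM, a level per length, was also used to order the 9 genes within each group. The gene models ran from 540 bases (TCF21) to 6970 bases (PDGFRB). How complete they are was not tested, and the order between genes depends on it. In cattle-yak the mean levels fell from PDGFRA (43.0 FPKM) through NR2F2 (28.7), TCF21 (24.4), PDGFA (16.7), PDGFC (16.4), PDGFD (13.8), PDGFRB (12.3) and NES (8.55) to DLK1 (3.11). The ranges of neighbours in this order overlapped, apart from the steps between TCF21 and PDGFA and between NES and DLK1. In yak the order ran from PDGFRA (7.18 FPKM) and NR2F2 (7.14) through PDGFC (4.23), PDGFA (4.23), TCF21 (3.97), PDGFRB (3.21), PDGFD (2.38) and NES (2.26) to DLK1 (1.16). Here neighbours did not overlap between NR2F2 and PDGFC, between PDGFRB and PDGFD and between NES and DLK1. Thus PDGFRA came first and DLK1 last in both groups by their means, although the ranges of PDGFRA and NR2F2 overlapped in both groups.

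As spermatid transcripts were scarce in cattle-yak, the 9 genes were also set beside other genes of somatic cells. Of 16 other genes known from stromal progenitors, 14 were called higher and 0 lower in cattle-yak, with a median log2 (foldchange) of 1.50. NT5E, an ectonucleotidase of mesenchymal cells, had 2.46, the receptor NOTCH2 2.32, and ITGAV, the alpha-V integrin that marks stem Leydig cells, 2.28. The genes not called were VCAM1 (0.38) and LHX9 (−0.05), named here after their values were seen. All 8 fibroblast genes were called higher (median 2.53), with MGP at 2.97, COL1A1 at 2.83 and COL3A1 at 2.65. The 7 genes of adult Leydig cells in the table were also called higher, with a median of 1.92. Medians of the other somatic lists were 2.23 for Sertoli cells (12 of 12 higher), 1.92 for myoid cells (6 of 7 higher), 1.03 for pericytes (4 of 7 higher) and 1.16 for endothelium (5 of 8 higher and 1 lower). The macrophage list had a median of 1.16 (4 of 7 higher, 2 lower), and the spermatogonia list one of 1.89 (7 of 8 higher). The spermatocyte list had a median of 0.00 (1 of 7 higher, 2 lower), while all 6 spermatid genes were lower, with a median of −7.77. Each of these lists is read against the 33.4% of all genes that were called higher and the 20.8% that were called lower.

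**Figure D3:**
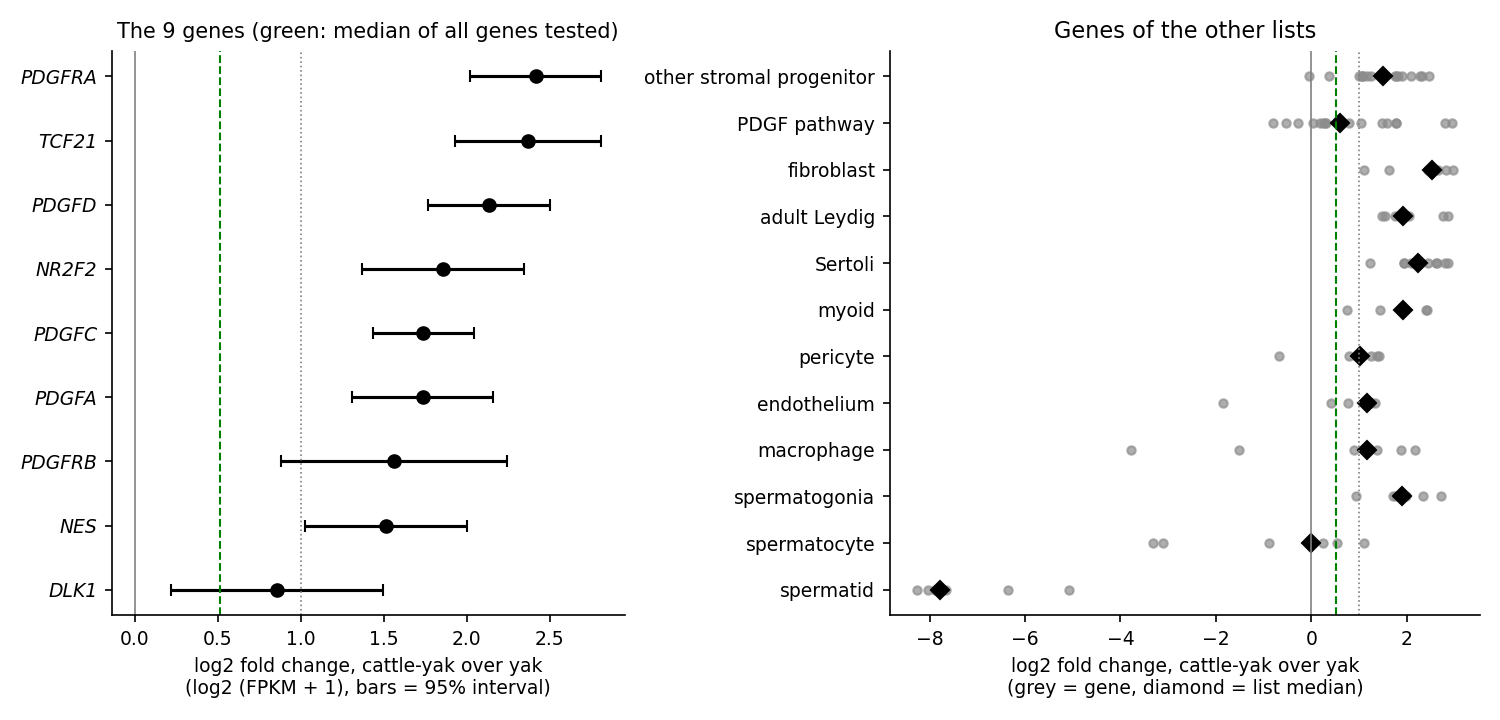
Log2 (foldchange) of cattle-yak over yak on log2 (FPKM + 1). Left, the 9 genes with 95% intervals; right, genes of 12 other lists (grey) with the list median (diamond); the green dashed line is the median of all genes tested (0.51) and the dotted line the threshold of 1. The 9 genes run from 0.86 (DLK1) to 2.41 (PDGFRA), and only the spermatid median, −7.77, lies far below 0.

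Of 17 further genes of the PDGF pathway in the table, most of them adaptors, kinases and proteases that work with the receptors, 7 were called higher and 0 lower in cattle-yak. Their median log2 (foldchange) was 0.61, beside 0.51 for all genes tested. PLAT, the tissue plasminogen activator that cleaves PDGFC into its active form, had 51.1, 42.4 and 48.8 FPKM in TES5, TES6 and TES7, against 4.32, 4.97 and 6.62 FPKM in Yak8, Yak9 and Yak10. Its log2 (foldchange) of 2.95 (limma adjusted p = 9.9e-07) exceeded that of each of the 9 genes. The kinase SRC had 2.79 and the adaptor CRK 1.78, although the symbol CRK stands on 3 genes, which makes its value uncertain. The 10 genes that were not called ran from −0.80 to 0.80 on the log2 scale. Among them were the proteases PLAU (−0.52) and ST14 (0.28), named here after their values were seen. Of the 15 other tested genes that the deposited annotation assigns to PDGF receptor signaling, a list that shares PDGFB, PLAT and PTPN11 with the previous one, 9 were called higher and 0 lower, with a median of 1.36. Besides PLAT, BCAR1, a docking protein of focal adhesions, had 2.45 and ZFAND5 2.34. Both lists are read against the 33.4% of all genes tested that were called higher and the 20.8% that were called lower.

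To compare the 9 genes with other somatic genes, the mean log2 (FPKM + 1) of a list was subtracted from that of each gene within the same library. The result depends on the list and, through the pseudocount, to some degree on the scaling between libraries. Relative to the 8 fibroblast genes, PDGFRA differed by 0.08 and TCF21 by 0.03 between the groups, with overlap, and NR2F2 by −0.48, also with overlap. All 3 cattle-yak lay below all 3 yak for the other 6 genes, as they did for 90.6% of the genes tested (0.957% lay higher), with differences of −0.20 for PDGFD, −0.60 for PDGFA and PDGFC, −0.77 for PDGFRB, −0.82 for NES and −1.48 for DLK1. For PDGFD the gap was narrow, with −1.674 in TES7 against −1.669 in Yak9. Relative to the 12 Sertoli genes, 4 genes lay lower without overlap, namely PDGFA (−0.53), PDGFC (−0.53), NES (−0.76) and DLK1 (−1.41), where 90.1% of the genes tested lay lower and 1.5% higher. Relative to the 7 adult Leydig genes only DLK1 of the 9 genes lay lower without overlap, where 81% of the genes tested lay lower and 1.86% higher. Relative to the 7 myoid genes TCF21, PDGFRA and PDGFD lay higher (0.55, 0.59 and 0.31) while PDGFC and DLK1 lay lower (−0.09 and −0.97), where 5.01% of the genes tested lay higher and 78.9% lower. Here the gap of PDGFC was narrow, with −1.103 in TES7 against −1.097 in Yak8. Relative to the pericyte and the endothelium lists, both chosen as references after the data were seen, 8 genes lay higher without overlap and DLK1 overlapped. Of the genes tested 21.5% lay higher and 44.3% lower relative to the pericyte list, and 28.4% higher and 40.8% lower relative to the endothelium list.

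**Figure D4:**
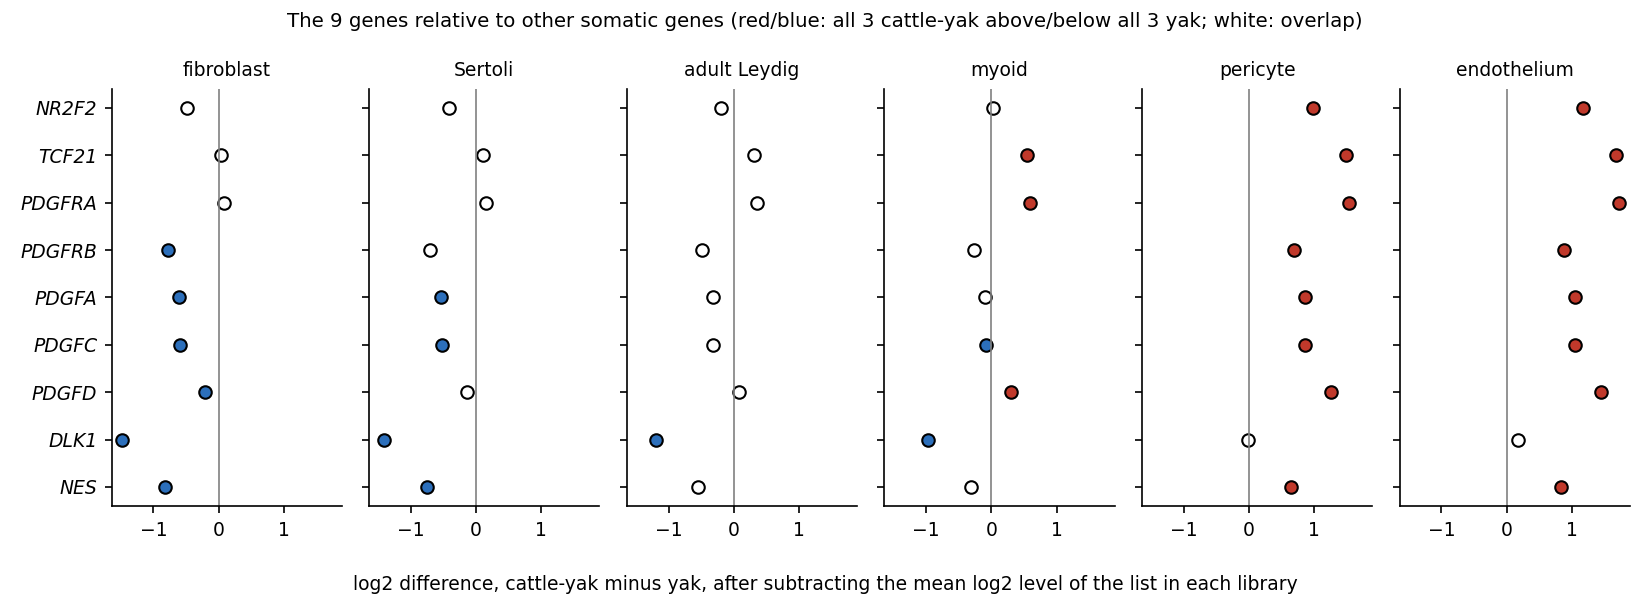
Difference between the group means of log2 (FPKM + 1), cattle-yak minus yak, after subtracting the mean of a list of somatic genes in each library; red and blue points mark genes whose 3 cattle-yak values all lie above or below the 3 yak values, and white points mark overlap. Subtracting a list shifts all genes of a panel by the same amount, so their order is the same in every panel. DLK1, with the smallest log2 (foldchange) of them, therefore lies lowest in all 6 panels, and these are not separate results. PDGFRA and TCF21 overlap against the fibroblast (0.08 and 0.03), Sertoli (0.15 and 0.10) and adult Leydig (0.36 and 0.32) lists.

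For DLK1 and the adult Leydig genes the difference was followed in each library. The log2 (FPKM + 1) of DLK1 minus the mean of the 7 adult Leydig genes was −5.89, −5.01 and −4.77 in TES5, TES6 and TES7, and −4.42, −3.97 and −3.69 in Yak8, Yak9 and Yak10. It was lower in every cattle-yak than in every yak, as it was for 81% of the genes tested, and the group means differed by −1.20 (exact permutation test, two-sided, p = 0.1, adjusted p = 0.14). Against CYP17A1 alone, the enzyme that makes androgen precursors, the group means differed by −2.01, again without overlap, although the symbol CYP17A1 stands on 3 genes, of which the most abundant was used. Against INSL3 alone, the peptide hormone of Leydig cells, the difference was −0.70 and the groups overlapped. They also overlapped with a pseudocount of 0.1, where the difference was −0.90.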

How the data were processed

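Testis RNA of 3 cattle-yak and 3 yak was sequenced as paired reads, 1 library per animal. Per the methods, the authors used Trimmomatic for trimming, HISAT2 for mapping to the yak assembly LU_Bosgru_v3.0, Cufflinks for FPKM and HTSeq-count for counting. The FPKM values were used as deposited by the authors, per gene length and library depth, without scaling between libraries. Whole fragments were sought from the ratios between libraries and found for each of the 17973 genes detected in 2 or more libraries (within 0.003 fragments plus a small share of the count). The search was wide and this tolerance grows with the count, so finding them for every gene is no test by itself. With the total fitted to give whole gene lengths, 99.3% of the lengths were whole within 0.02 bases. Which of both programs gave the values is uncertain.

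The 15042 genes whose mean reached 0.5 FPKM were fitted on log2 (FPKM + 1), which understates changes of low genes, with limma 3.58.1 in R 4.3.3 (variance trend, two-sided, Benjamini-Hochberg). The fit was tested on simulated data. Ratios within libraries were compared with exact permutation tests (scipy 1.17.1 in Python 3.11.15), whose smallest p is 0.1. A symbol on several genes is represented by its most abundant gene. The 9 genes and all gene lists were chosen with earlier results of these data known, so they are not independent evidence. Named are the 9 genes, PDGFB and up to 3 called genes per list and direction with the largest changes, unless stated. Alternatives covered pseudocounts, filters, scalings, variance models, voom on recovered fragments and the omission of each animal. Chromosome positions and sequences were not used here.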

Additional observations from a re-analysis of the deposited data

How the results depend on the processing

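Without any 1 animal, 8 or 9 of the 9 genes were called higher and 0 lower. The same held for pseudocounts of 0.1 and 0.01, no filter, median-of-ratios, TPM and quantile scaling, other variance models, no threshold on the fold and voom. A minimum of 5 FPKM removed DLK1 from the test. Over all genes 7916 were higher without a threshold on the fold, and 2655 with median-of-ratios scaling, against 5023. Centring on a somatic list changed most: no member was called higher with the Sertoli, adult Leydig, fibroblast or myoid list (0 of 9 each), and 1 (DLK1) was called lower with the Sertoli, adult Leydig and fibroblast lists (1 each). Over all genes 28, 50, 27 and 109 were then higher and 11272, 10297, 11612 and 9117 lower, against 3136 lower above. Centring on the pericyte and endothelium lists, added after seeing the data, left 3 and 6 members called higher. Of all genes 1487 and 2059 were then higher, and 5172 and 4609 lower. The error of a list's level is shared by all genes, so adjusted p values after centring are not quoted.

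Values whose sign turned, by construction of the centring, were as follows. With the Sertoli list NR2F2 had −0.41, PDGFRB −0.71, PDGFA −0.53, PDGFC −0.53, PDGFD −0.14, DLK1 −1.41 and NES −0.76. With the adult Leydig list NR2F2 had −0.20, PDGFRB −0.49, PDGFA −0.32, PDGFC −0.32, DLK1 −1.20 and NES −0.54. With the fibroblast list NR2F2 had −0.48, PDGFRB −0.77, PDGFA −0.60, PDGFC −0.60, PDGFD −0.20, DLK1 −1.48 and NES −0.82. With the myoid list PDGFRB had −0.26, PDGFA −0.0895, PDGFC −0.0868, DLK1 −0.97 and NES −0.31, and with the pericyte list DLK1 had −0.0158. The difference in the PDGFA share was −3.86 percentage points without PDGFB, and 0.615 to 5.46 without 1 animal. No paired analysis was made, because the groups were separate animals and the labels name no pairs. The low fragment numbers of DLK1 and, in yak, of TCF21 and PDGFD limit their precision.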
